A study of Homo sapiens with 20 samples.

Results

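U2932, a human diffuse large B cell lymphoma line of the activated B cell type, was grown for 18 h with a compound that the labels call TK, or with DMSO, the solvent, as control. The 3 libraries of TK for 18 h were set against all 4 U2932 libraries of DMSO, 1 taken at 18 h (numbered replicate 2) and 3 taken at 8 h, so that 7 of the 20 libraries of the series entered the comparison. The other libraries served to estimate the spread and as a comparison line: 2 of U2932 with TK for 8 h, and 11 of DOHH2, a lymphoma line of the germinal centre type, with TK for 18 h (3) and 8 h (3) and with DMSO for 18 h (2) and 8 h (3). The labels give no dose and no other agent, and both are established cell lines. U2932 has been reported to hold genetically distinct subclones. Nothing in the labels says that the replicates were separate cultures, so p-values measure the spread between these libraries, which may be technical. Because 3 of the 4 controls were taken at 8 h, the compound and the time in culture cannot be told apart in the pooled comparison, and results are therefore also given against the 18 h DMSO library alone and against each 8 h library.

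A cell that is about to divide builds up the B-type cyclins, which activate the kinase CDK1 and start mitosis. The anaphase-promoting complex then ends mitosis: with its activator CDC20 and the ubiquitin-conjugating enzyme UBE2S it marks securin (PTTG1) and the B-type cyclins for destruction, and the sister chromatids separate. The transcripts of these genes are low in G1 and highest in G2 and mitosis, and their promoters are known for a short element close to the gene start, TTTGAA or TTTAAA, and for CCAAT boxes upstream of it, which NF-Y binds. DNA replication genes and the E-type cyclins peak earlier, around the start of S phase.

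After 18 h of TK, the transcripts of CDC20, both B-type cyclins and securin stood above their level in all DMSO libraries. CDC20 (chr1:43358955-43363203, plus strand, GRCh38), the activator named above, had 541, 475 and 469 CPM with TK, against 218 CPM in the 18 h DMSO library and 214, 140.0 and 171 CPM in the 8 h DMSO libraries. CPM are read counts relative to the library size, scaled with TMM factors. The level rose 2.66-fold (log2 1.41 ± 0.18, adjusted p = 0.000649; edgeR quasi-likelihood test with Benjamini-Hochberg adjustment over all genes; ± is the standard error of a log2 value). CCNB1, which encodes cyclin B1, had 403, 368 and 367 CPM with TK, against 164 CPM in the 18 h and 194, 144 and 159.6 CPM in the 8 h DMSO libraries (log2 1.20 ± 0.14, adjusted p = 0.000225, the smallest of all genes tested). CCNB2, for cyclin B2, had 242, 196 and 194 CPM with TK, against 90.9 CPM in the 18 h and 115, 71.6 and 82.7 CPM in the 8 h DMSO libraries (log2 1.22 ± 0.16, adjusted p = 0.000649). PTTG1, the securin gene, had 427, 391 and 394 CPM with TK, against 201 CPM in the 18 h and 189, 147 and 167 CPM in the 8 h DMSO libraries (log2 1.20 ± 0.19, adjusted p = 0.00244). The rule that named these 4 genes took only genes whose TK libraries all lay on one side of all DMSO libraries, so that they do not overlap is no result.

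The promoters of 6 of the mitotic genes that rose are printed because they carry both the short element and the CCAAT box. They were chosen after their values were seen. Each line gives the 130 bases before the gene start, plus strand of GRCh38.p14, from RefSeq. Capitals mark TTTGAA (or TTCAAA, the same word on the other strand), TTTAAA, and CCAAT (or ATTGG, the same word on the other strand).
CDC20, chr1:43358851-43358980: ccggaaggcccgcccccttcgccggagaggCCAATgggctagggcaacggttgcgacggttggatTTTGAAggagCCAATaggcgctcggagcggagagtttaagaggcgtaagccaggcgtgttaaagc
CCNB1, chr5:69167020-69167149: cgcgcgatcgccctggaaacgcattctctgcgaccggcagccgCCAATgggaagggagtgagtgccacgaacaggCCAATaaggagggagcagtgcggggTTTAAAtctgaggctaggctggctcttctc
CCNB2, chr15:59105016-59105145: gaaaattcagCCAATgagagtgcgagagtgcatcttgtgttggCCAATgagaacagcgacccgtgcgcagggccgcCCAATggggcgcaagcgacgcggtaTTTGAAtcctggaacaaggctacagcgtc
PTTG1, chr5:160421725-160421854: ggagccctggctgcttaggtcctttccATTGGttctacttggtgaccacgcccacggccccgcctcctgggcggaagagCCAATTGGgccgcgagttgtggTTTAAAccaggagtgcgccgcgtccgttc
PLK1, chr16:23678759-23678888: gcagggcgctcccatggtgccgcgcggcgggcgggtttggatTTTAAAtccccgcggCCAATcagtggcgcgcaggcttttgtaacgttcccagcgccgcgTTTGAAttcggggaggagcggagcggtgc
CKS2, chr9:89311065-89311194: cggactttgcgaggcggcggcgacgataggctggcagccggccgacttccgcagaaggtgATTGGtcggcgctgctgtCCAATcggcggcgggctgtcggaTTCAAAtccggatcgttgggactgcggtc
The start is that of RefSeq. The gene starts of the GENCODE annotation lie upstream of it in all but CKS2, so the windows of CCNB1 and PLK1 lie wholly inside the GENCODE gene, and those of CDC20, CCNB2 and PTTG1 in part. In CCNB1 the short element begins 30 bases before the start, and in CCNB2, PTTG1, PLK1 and CKS2 29 bases before it. In CDC20 the short element begins 65 bases before the start. PLK1 holds another, TTTAAA, that begins 88 bases before the start. In PTTG1 the last CCAAT and an ATTGG overlap. Across the table, 5.58% of 27305 promoters hold TTTGAA or TTTAAA on either strand within the 60 bases before the start, as do 3.21% of the 10641 tested genes that have an entry. Of the mitotic and centromere genes listed below that rose, 18 have an entry and 13 (72.2%) hold the element there. Of those that were tested and did not pass, 10 of 29 (34.5%) hold it. A CCAAT box on either strand, anywhere from 250 bases before to 50 after the start, is in 14 of the 18 and in 22 of the 29, against 35.7% of all promoters. These shares describe the windows and were not tested.

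UBE2S, AURKA, PLK1, CKS2 and BIRC5 rose as well. UBE2S (chr19:55399745-55407777, minus strand) had 733, 719.7 and 726 CPM with TK, against 356 CPM in the 18 h and 308, 269.8 and 353 CPM in the 8 h DMSO libraries (log2 1.18 ± 0.16, adjusted p = 0.000921). The 3 TK libraries lay close together, at 726 ± 6.46 CPM (SD, n = 3), against 321 ± 40.9 CPM with DMSO (SD, n = 4). AURKA, the centrosomal mitotic kinase (chr20:56369389-56392337, minus strand), had 219, 220.4 and 221 CPM with TK, against 114 CPM in the 18 h and 123, 96.0 and 105 CPM in the 8 h DMSO libraries (log2 1.01 ± 0.16, adjusted p = 0.00216). PLK1, a kinase of mitotic entry and exit, had 364, 344 and 341 CPM with TK, against 196 CPM in the 18 h and 206, 144 and 173 CPM in the 8 h DMSO libraries (log2 0.96 ± 0.16, adjusted p = 0.00394). The groups did not overlap in either, as the naming rule required of AURKA. CKS2, the small subunit that binds cyclin-dependent kinases, had 329, 337 and 337 CPM with TK, against 174 CPM in the 18 h and 184, 172 and 167 CPM in the 8 h DMSO libraries (log2 0.94 ± 0.17, adjusted p = 0.00444). BIRC5, which encodes survivin of the chromosomal passenger complex, had 231, 232 and 225 CPM with TK, against 132 CPM in the 18 h and 139, 102 and 118 CPM in the 8 h DMSO libraries (log2 0.91 ± 0.15, adjusted p = 0.00388). PLK1, CKS2 and BIRC5 are named after their values were seen.

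Other genes of the same phase moved the same way, with means ± SD over 3 TK and 4 DMSO libraries. CDKN3, a phosphatase of cyclin-dependent kinases, averaged 95.5 ± 7.41 CPM with TK and 48.3 ± 12.8 CPM with DMSO (log2 0.98 ± 0.18, adjusted p = 0.005). TROAP, a microtubule-associated protein of the spindle, averaged 153 ± 6.79 CPM with TK and 76.9 ± 16.01 CPM with DMSO (log2 0.99 ± 0.15, adjusted p = 0.002). CEP70, of the centrosome, averaged 46.2 ± 3.32 CPM with TK and 22.1 ± 5.15 CPM with DMSO (log2 1.06 ± 0.16, adjusted p = 0.002). CENPW, of the inner kinetochore, averaged 19.8 ± 0.693 CPM with TK and 9.67 ± 2.17 CPM with DMSO (log2 1.03 ± 0.23, adjusted p = 0.0145). HMMR, a spindle pole protein, averaged 128 ± 17.9 CPM with TK and 64.5 ± 19.2 CPM with DMSO (log2 0.99 ± 0.29, adjusted p = 0.036). CDC20P1, a pseudogene of CDC20, averaged 7.65 ± 1.47 CPM with TK and 3.36 ± 0.528 CPM with DMSO (log2 1.18 ± 0.30, adjusted p = 0.0216), and reads of the parent gene and of its copy may have been split between them.

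The core kinase did not pass the test. CDK1 had 78.8, 106 and 92.0 CPM with TK, against 107 CPM in the 18 h and 124, 82.2 and 85.1 CPM in the 8 h DMSO libraries, and the groups overlapped (log2 -0.11 ± 0.22, adjusted p = 0.797). CCNA2, for cyclin A2, which acts from S phase into G2, had 170.1, 149 and 148 CPM with TK, against 128 CPM in the 18 h and 174, 110.5 and 99.0 CPM in the 8 h DMSO libraries (log2 0.28 ± 0.19, adjusted p = 0.346). Both are named after their values were seen, and the difference between their change and that of the B-type cyclins was not tested.

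**Figure D1:**
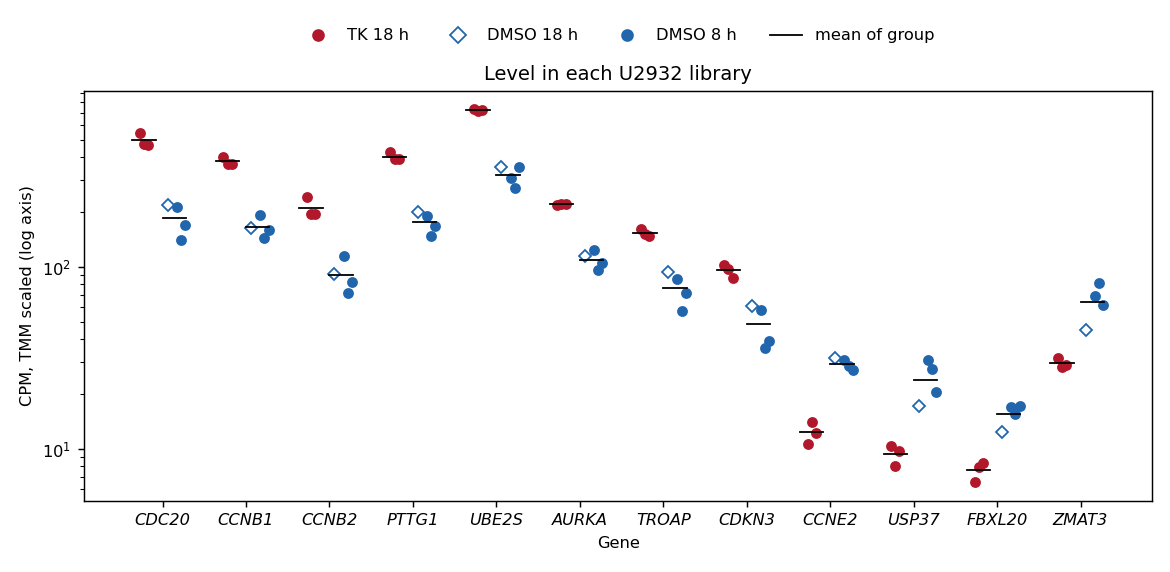
CPM on a log axis in each of the 7 U2932 libraries for 8 genes that rose and 4 that fell: filled red circles, TK 18 h; open blue diamonds, DMSO 18 h; filled blue circles, DMSO 8 h; bars, the mean of the 3 TK libraries and of the 4 DMSO libraries. For each gene drawn, the 3 TK libraries lie on one side of all 4 DMSO libraries, as the naming rule required of all but CDKN3 and FBXL20, with CDC20 between 469 and 541 CPM with TK and at 218 CPM or below with DMSO.

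Over the list of mitotic entry and spindle genes, 13 of 30 rose and 0 fell (18 and 0 at an unadjusted p under 0.05). The background was 4.82% of the 16478 genes tested called higher and 4.88% called lower. The median log2 change of the list was 0.50, against -0.02 over all genes tested, and in 17 of the 30 all 3 TK libraries stood above all 4 DMSO libraries, against 15.4% of all genes. By DESeq2 14 rose and 0 fell, and by limma voom 24 and 1. Over all genes DESeq2 called 1199 higher and 1201 lower, and limma voom 3323 and 3485. The fit with the replicate number as a block, used below, called 1773 and 1609. An unadjusted p under 0.05 was found for 27% of all genes tested. List counts by these tests, here and below, have these backgrounds. Summed over the list, the level was 5209 to 5484 CPM in the TK libraries and 2735 to 3929 CPM in the DMSO libraries.

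Of the kinesin and centromere genes 8 of 25 rose and 0 fell (11 and 0 at an unadjusted p under 0.05), with a median of 0.52. CENPA, the centromeric histone H3 variant, averaged 59.3 ± 5.80 CPM with TK and 33.1 ± 5.99 CPM with DMSO (log2 0.84 ± 0.16, adjusted p = 0.0066). DLGAP5, which stabilises spindle microtubules, averaged 183 ± 5.52 CPM with TK and 95.6 ± 22.6 CPM with DMSO (log2 0.94 ± 0.22, adjusted p = 0.016). These 2 did not overlap between the groups. NUF2, of the outer kinetochore, rose by log2 0.82 ± 0.20 (adjusted p = 0.0194) and KIF20A, a kinesin of cytokinesis, by 0.70 ± 0.18 (adjusted p = 0.0245). Of the tubulin genes 2 of 12 rose (7 with the replicate number as a block), with a median of 0.52. TUBB4B, a beta tubulin, averaged 664 ± 59.1 CPM with TK and 452 ± 81.5 CPM with DMSO (log2 0.56 ± 0.17, adjusted p = 0.0426), and TUBB6, another, averaged 43.6 ± 12.1 CPM with TK and 24.7 ± 7.35 CPM with DMSO (log2 0.82 ± 0.24, adjusted p = 0.0369). Tubulin genes resemble each other closely, so how reads were shared among them is uncertain.

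Set against the control of the same time, the mitotic list had a median of 0.41, with 23 of 30 members positive, and against the 8 h libraries medians of 0.32, 0.87 and 0.70, with 21, 29 and 29 members positive. The median against 8 h replicate 1 was the smallest of the 4. For kinesins and centromere genes the medians were 0.22 against the 18 h library and 0.31, 0.94 and 0.68 against the 8 h libraries, and for tubulins 0.18 against 18 h and 0.43, 0.83 and 0.55 against 8 h. CDC20 itself stood at log2 1.18 above the 18 h library and 1.21, 1.82 and 1.53 above the 8 h libraries, and CCNB1 at 1.21 above the 18 h library and 0.97, 1.39 and 1.25 above the 8 h libraries. With a single 18 h control no mitotic gene passed the edgeR test against it (adjusted p = 0.12 for CCNB1, 0.258 for CCNB2 and 0.374 for CDC20, the lone library being assumed to vary like the other groups). Leaving out TK replicate 1, 2 or 3, the 18 h control, or 8 h control 1, 2 or 3 left 7, 9, 10, 16, 13, 7 and 9 of the 30 mitotic genes called higher, and 0, 1, 4, 11, 5, 1 and 2 of the 25 kinesin and centromere genes. For the tubulins these counts were 0, 0, 0, 4, 0, 0 and 0.

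**Figure D2:**
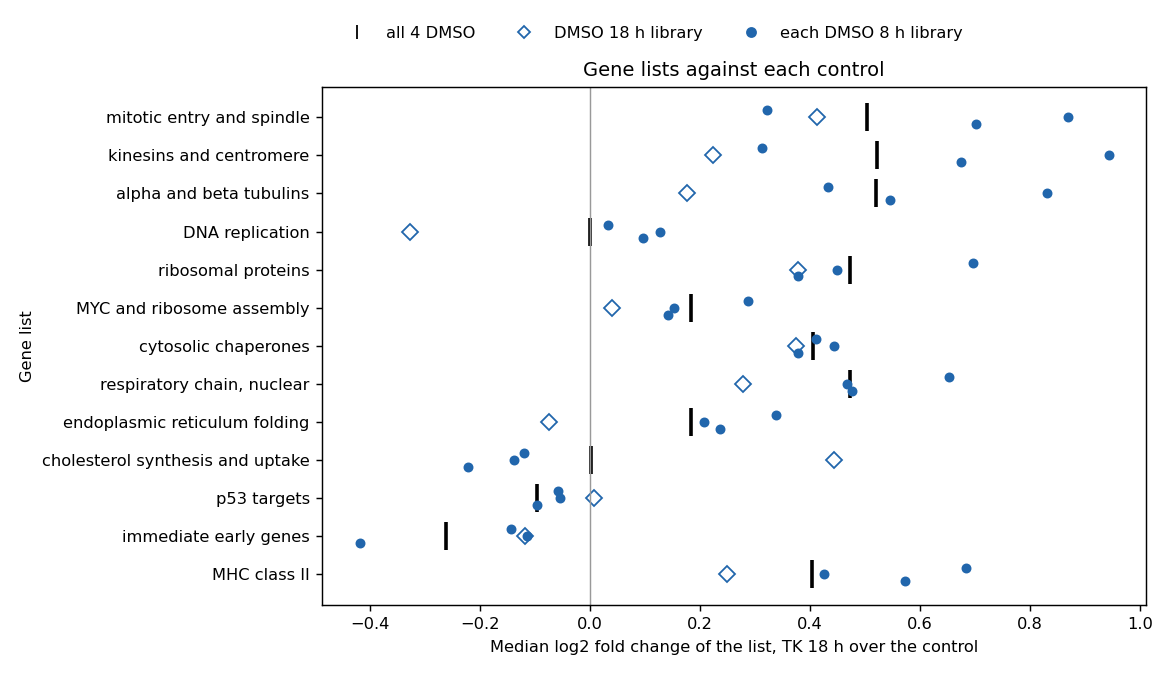
Median log2 fold change of 13 gene lists, TK 18 h over the control, drawn against all 4 DMSO libraries (black bar), the 18 h DMSO library (open diamond) and each 8 h DMSO library (filled circles, replicates 1, 2 and 3 from top to bottom within a row). The mitotic, ribosomal and chaperone lists lie right of 0 against every control, while the medians of DNA replication (-0.33) and cholesterol synthesis (0.44) against the 18 h library stand away from those against the 8 h libraries.

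At the entry to S phase the E-type cyclins fell. CCNE2, for cyclin E2, had 10.6, 14.1 and 12.3 CPM with TK, against 31.4 CPM in the 18 h and 30.7, 28.4 and 27.0 CPM in the 8 h DMSO libraries. All DMSO libraries lay in a narrow band above the TK libraries, and the level fell by 1.25 ± 0.23 on the log2 scale (adjusted p = 0.00478). CCNE1, for cyclin E1, had 18.5, 23.1 and 19.96 CPM with TK, against 36.2 CPM in the 18 h and 23.6, 28.6 and 31.7 CPM in the 8 h DMSO libraries (log2 -0.55 ± 0.16, adjusted p = 0.0378). MCM4, a subunit of the replicative helicase, averaged 467 ± 43.1 CPM with TK and 648 ± 33.4 CPM with DMSO (log2 -0.47 ± 0.13, adjusted p = 0.0311). These were the 3 of 35 DNA replication genes that fell (8.57%, against 4.88% of all genes tested). Of the 35, 0 rose (1 at an unadjusted p under 0.05, 0 by DESeq2 and 7 by limma voom). Over all 16478 genes limma voom called 3323 higher. Of the 7 fits that left out 1 library, CCNE2 kept the call in 6, and CCNE1 and MCM4 in 1 each. RBL1, which encodes the pocket protein p107, had 22.9, 22.4 and 23.3 CPM with TK, against 35.4 CPM in the 18 h and 41.8, 35.1 and 31.2 CPM in the 8 h DMSO libraries (log2 -0.65 ± 0.16, adjusted p = 0.0193).

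The replication list as a whole depended on the control. Its median was 0.00 against all 4 DMSO libraries and 0.03, 0.13 and 0.10 against the 8 h libraries. Against the 18 h library it was -0.33, with 34 of 35 members negative. The 18 h DMSO library stood above the 8 h DMSO libraries by a median of 0.36 for the same list, so this value rests on that 1 library. CCNE2 stood at -1.35 against 18 h and -1.32, -1.21 and -1.13 against 8 h. Leaving out TK replicate 1, 2 or 3, the 18 h control, or 8 h control 1, 2 or 3 left 0, 1, 1, 2, 2, 1 and 1 of the 35 called lower.

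In the cytosolic ribosomal protein genes every member listed stood higher. All 27 had positive log2 values against each of the 4 DMSO libraries, and in all 27 the 3 TK libraries stood above all 4 DMSO libraries. The median was 0.47 against all DMSO, 0.38 against the 18 h library and 0.70, 0.45 and 0.38 against the 8 h libraries, and 18 of 27 passed the test. RPL3, a large-subunit protein near the peptidyl transferase centre (chr22:39312882-39320389, minus strand), had 3245, 3222 and 3052 CPM with TK, against 2324 CPM in the 18 h and 1818, 1854 and 2040.4 CPM in the 8 h DMSO libraries (log2 0.66 ± 0.12, adjusted p = 0.005). RPS2, of the small subunit, averaged 3255 ± 107 CPM with TK and 2204 ± 239.8 CPM with DMSO (log2 0.56 ± 0.13, adjusted p = 0.0143). RPL4, of the large subunit, rose by log2 0.47 ± 0.10 (adjusted p = 0.0113) and RPL5, which also binds MDM2 outside the ribosome, by 0.48 ± 0.11 (adjusted p = 0.0143). Summed over the 27 genes, the level was 57299 to 61229 CPM in the TK libraries and 36978 to 44857 CPM in the DMSO libraries. RPL39L, a close relative of RPL39, had 75.2, 66.7 and 62.4 CPM with TK, against 41.2 CPM in the 18 h and 34.9, 19.7 and 23.3 CPM in the 8 h DMSO libraries (log2 1.19 ± 0.22, adjusted p = 0.00545). Ribosomal protein genes have many processed copies in the genome, so the split of reads between gene and copy is uncertain.

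Of the cytosolic chaperones 9 of 15 rose and 0 fell (0 at an unadjusted p under 0.05, 0 by DESeq2 and 1 by limma voom), with a median of 0.40 against all DMSO, 0.38 against the 18 h library and 0.41, 0.44 and 0.38 against the 8 h libraries. HSP90AA1, the inducible HSP90, had 5533, 5638 and 5406 CPM with TK, against 4083 CPM in the 18 h and 3946, 3406 and 3682 CPM in the 8 h DMSO libraries (log2 0.55 ± 0.14, adjusted p = 0.0219). HSP90AB1, its constitutive relative, rose by log2 0.40 ± 0.10 (adjusted p = 0.0175), CCT5, a subunit of the chaperonin that folds tubulin and actin, by 0.45 ± 0.10 (adjusted p = 0.0115), and CCT3 of the same complex by 0.44 ± 0.11 (adjusted p = 0.0176). Of 18 nuclear genes for respiratory chain subunits 8 rose and 0 fell (16 rose with the replicate block), with a median of 0.47 against all DMSO, 0.28 against the 18 h library and 0.65, 0.47 and 0.48 against the 8 h libraries. SDHB, of complex II, averaged 148 ± 10.8 CPM with TK and 93.5 ± 8.01 CPM with DMSO (log2 0.66 ± 0.13, adjusted p = 0.0072). UQCRC2, of complex III, rose by log2 0.54 ± 0.11 (adjusted p = 0.0123), and the complex I subunits NDUFB3 by 0.59 ± 0.15 (adjusted p = 0.0239) and NDUFB9 by 0.50 ± 0.13 (adjusted p = 0.0264). Of the 13 respiratory genes of the mitochondrial genome 0 rose and 0 fell by edgeR (0 and 0 at an unadjusted p under 0.05, 0 fell by DESeq2 and 2 by limma voom), with a median of -0.08.

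The counts of these 3 groups differed with the library left out. Leaving out TK replicate 1, 2 or 3, the 18 h control, or 8 h control 1, 2 or 3 left 1, 2, 9, 19, 4, 1 and 11 of the 27 ribosomal protein genes called higher. The same omissions left 1, 0, 3, 9, 2, 1 and 4 of the 15 chaperones, and 0, 2, 3, 12, 2, 2 and 2 of the 18 respiratory genes.

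Genes of ribosome assembly and the MYC network moved less evenly. Of 26 genes 4 rose and 1 fell (10 and 2 with the replicate block), with a median of 0.18 that was 0.04 against the 18 h library. This is 15.4% higher and 3.85% lower, against 4.82% and 4.88% of all genes tested. ODC1, the first enzyme of polyamine synthesis and a MYC target, averaged 1091 ± 52.6 CPM with TK and 792 ± 83.6 CPM with DMSO (log2 0.46 ± 0.10, adjusted p = 0.0146). NOP58, of the box C/D small nucleolar ribonucleoproteins, rose by log2 0.43 ± 0.11 (adjusted p = 0.0218) and NPM1, the nucleolar chaperone, by 0.35 ± 0.10 (adjusted p = 0.0367). MAX, the partner through which MYC binds DNA, had 47.9, 61.2 and 55.2 CPM with TK, against 69.6 CPM in the 18 h and 68.3, 78.6 and 78.1 CPM in the 8 h DMSO libraries, and fell by 0.43 ± 0.11 on the log2 scale (adjusted p = 0.0227). UBB, a polyubiquitin gene, was among the 15 largest rises, with 921, 880.0 and 891 CPM with TK, against 595 CPM in the 18 h and 377, 386 and 448 CPM in the 8 h DMSO libraries (log2 0.99 ± 0.17, adjusted p = 0.00388). NCF4, a cytosolic subunit of the phagocyte oxidase that B cells also express, averaged 47.5 ± 3.96 CPM with TK and 23.9 ± 8.39 CPM with DMSO (log2 0.99 ± 0.29, adjusted p = 0.038; 0.40 against the 18 h library).

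Of the 15 falls that the naming rule gives, 9 are described, CCNE2 above, ZMAT3 and TP53INP1 among the p53 targets, and 6 here, and the other 6 are clone-named loci or a pseudogene. The rule took only genes whose TK and DMSO libraries do not overlap. USP37, a deubiquitinase that acts on cyclin A (chr2:218450251-218568361, minus strand), had 10.4, 8.04 and 9.68 CPM with TK, against 17.2 CPM in the 18 h and 30.7, 27.5 and 20.4 CPM in the 8 h DMSO libraries (log2 -1.35 ± 0.24, adjusted p = 0.00444). UHMK1, a kinase of splicing factors, had 79.7, 55.6 and 59.5 CPM with TK, against 84.5 CPM in the 18 h and 234, 207 and 139.5 CPM in the 8 h DMSO libraries (log2 -1.36 ± 0.31, adjusted p = 0.016). The 18 h control of UHMK1 stood close to the TK libraries, and the log2 value against it was -0.38. FAM126B, which takes part in making plasma membrane phosphoinositides, averaged 14.4 ± 1.95 CPM with TK and 33.4 ± 12.9 CPM with DMSO (log2 -1.21 ± 0.29, adjusted p = 0.0172; -0.34 against the 18 h library). TSPOAP1 averaged 6.90 ± 1.86 CPM with TK and 17.2 ± 5.48 CPM with DMSO (log2 -1.31 ± 0.31, adjusted p = 0.0172; -0.85 against the 18 h library). MARCH1, a ubiquitin ligase that removes MHC class II from the surface of antigen-presenting cells, fell by 1.11 ± 0.32 on the log2 scale (adjusted p = 0.0348; -0.60 against the 18 h library), and SPIN4, of the spindlin family, by 1.06 ± 0.25 (adjusted p = 0.0172; -0.62 against the 18 h library). In each of these genes the value against the 18 h library was smaller in size than the pooled one. FBXL20, an F-box protein (chr17:39252644-39402523, minus strand), named for its difference from DOHH2 given below, had 6.55, 7.98 and 8.40 CPM with TK, against 12.4 CPM in the 18 h and 16.9, 15.5 and 17.2 CPM in the 8 h DMSO libraries (log2 -1.01 ± 0.16, adjusted p = 0.00216; -0.69 against the 18 h library).

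Of 15 nuclear long RNAs and host transcripts, 2 fell and 0 rose (4 and 3 with the replicate block), and both that fell are hosts of microRNAs. They are 13.3% of the list, against 4.88% of all genes tested. MIR17HG, the host of the miR-17 to miR-92a cluster, had 20.9, 30.1 and 24.6 CPM with TK, against 38.5 CPM in the 18 h and 63.4, 59.2 and 46.0 CPM in the 8 h DMSO libraries (log2 -1.04 ± 0.32, adjusted p = 0.0447). MIR34AHG, the host of miR-34a, which p53 induces, had 0.298, 0.257 and 0.665 CPM with TK, against 0.899 CPM in the 18 h and 1.03, 1.15 and 1.28 CPM in the 8 h DMSO libraries (log2 -1.34 ± 0.27, adjusted p = 0.00901). The mature microRNAs were not measured.

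The length of the transcript moved with the result. Length here is that of the longest annotated transcript of a gene, which need not be the one expressed. Its median was 1985 bases for the genes called higher, 4653 bases for those called lower and 3155 bases for all genes tested. Genes of 1000 to 2000 bases had a median log2 value of 0.16 against all DMSO, and genes over 8000 bases one of -0.25. Against the 18 h library these medians were 0.08 and -0.06, and between the 18 h and the 8 h DMSO libraries they were 0.13 and -0.22. The comparison of TK with all DMSO and that of DMSO at 18 h with 8 h share the 3 DMSO 8 h libraries. In DOHH2 with TK they ran the other way, at -0.08 and 0.12. After a correction of each library for length and GC content (chosen after seeing the data), 978 genes were called higher and 1122 lower. With it 17 of the 30 mitotic, 15 of the 27 ribosomal protein and 5 of the 18 respiratory genes were higher. The median of the respiratory list was 0.27 with the correction, against 0.47 without it. SDHB, RPS2 and FDPS stood at 0.40, 0.32 and 0.32 with it and passed the test. TUBB4B (0.38, adjusted p = 0.0594 by edgeR), NDUFB3 (0.28, adjusted p = 0.067), RPL5 (0.26, adjusted p = 0.0532), NPM1 (0.22, adjusted p = 0.119) and ELK4 (-0.41, adjusted p = 0.0807) did not. The part of length in the results was not tested beyond this correction.

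**Figure D3:**
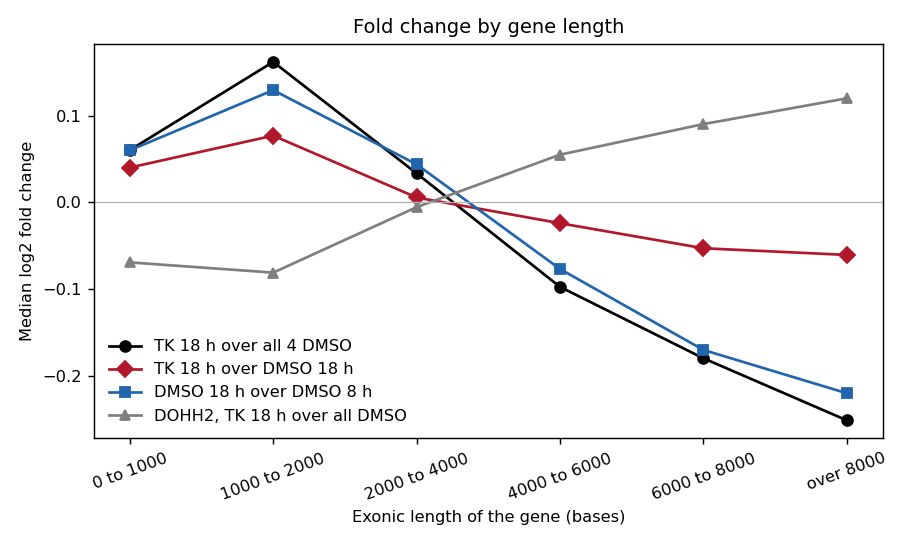
Median log2 fold change of all tested genes in 6 bins of exonic length (bases): black circles, TK 18 h over all 4 U2932 DMSO libraries; red diamonds, TK 18 h over the 18 h DMSO library; blue squares, DMSO 18 h over DMSO 8 h in U2932; grey triangles, DOHH2 with TK for 18 h over all DOHH2 DMSO libraries. Exonic length here is that of the longest annotated transcript of the gene. The black and blue points, whose comparisons share the 3 DMSO 8 h libraries, lie at 0.16 and 0.13 for 1000 to 2000 bases and at -0.25 and -0.22 over 8000 bases.

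In total 795 genes were called higher and 804 lower of 16478 at an adjusted p under 0.05 (9.7% of the genes tested; 4455 genes, or 27%, had an unadjusted p under 0.05). Of these, 42 higher and 150 lower genes changed by 2-fold or more. With the replicate number as a block the counts were 1773 and 1609. All 795 higher genes had the same sign against the 18 h DMSO library, and in 776 (97.6%) the 3 TK libraries stood above it, while over all genes tested this was so in 31.2%. For 607 of them (76.4%) the log2 value against the 18 h library was at least 0.5 times the pooled value. Of the 804 lower genes 795 had the same sign, in 757 (94.2%) the TK libraries stood below the 18 h library (32.7% over all genes), and 576 (71.6%) kept at least 0.5 times the pooled value. These shares describe genes that the pooled fit called with that library among its controls.

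Against 8 h controls 1, 2 and 3 the TK libraries stood above the control in 789, 789 and 787 of the 795 higher genes, against 36.9%, 35.9% and 34.1% of all genes, and below it in 798, 803 and 804 of the 804 lower genes, against 38.1%, 37.1% and 36.4% of all genes. The median of the higher genes was 0.35 against the 18 h library and 0.62, 0.58 and 0.54 against the 8 h libraries, and that of the lower genes was -0.45 against 18 h and -0.78, -0.74 and -0.65 against 8 h. In 773 of the higher and 750 of the lower genes the TK libraries stood apart from all 4 controls (15.4% and 13.6% over all genes). The pooled fit called these genes with the same 4 controls, so the shares follow in part from the call and are no test of it.

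Tested against single controls, the counts were small. Against the 18 h library 1 gene passed (0.00607% of those tested; 1075, or 6.52%, had an unadjusted p under 0.05), and this was IGKV3-20, described below. Against 8 h replicate 1 there were 31 higher (0.188%) and 208 lower genes (1.26%), against replicate 2 there were 47 (0.285%) and 55 (0.334%), and against replicate 3 there were 1 (0.00607%) and 6 (0.0364%), or 0.0425% in either direction. No gene passed the edgeR test against each of the 4 controls. Among the genes called in the pooled fit, 89 of the higher and 163 of the lower had an unadjusted p under 0.05 against each of the 4. These were not counted over all genes tested, and the 4 tests share the 3 TK libraries. The pooled fit chose these genes with the same 4 controls, so the 2 counts are no result. On simulated counts of the 16478 genes the pooled test recovered 80% of 2-fold and 44% of 1.5-fold changes, and the test against the 18 h library 33% of 2-fold and 0% of 1.5-fold changes. The false calls were 14 and 8. Apart from 200 changed genes, the simulated libraries shared the same mean per gene, without differences of line or time. The real libraries have such differences, so recovery in them may be lower. The changed genes were drawn only from genes above a minimum mean count, so recovery in genes of low count was not measured.

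The pooled counts also depended on single libraries. Without TK replicate 1 there were 36 higher and 44 lower genes, without TK replicate 2 there were 78 and 105, and without TK replicate 3 there were 338 and 220. Without 8 h control 1 there were 181 and 248, without 8 h control 2 there were 63 and 143, and without 8 h control 3 there were 250 and 344. Without the 18 h control the counts were 1443 and 1358. Of the 77 called genes named in the text, 17 passed in each of these 7 fits: CDC20, CCNB1, CCNB2, PTTG1, UBE2S, AURKA, PLK1, CKS2, BIRC5, CDKN3, TROAP, CEP70, UBB, RPL39L, RPL3, USP37 and FBXL20. The others lost the call without at least 1 library: 59 without TK replicate 1, 54 without TK replicate 2, 35 without TK replicate 3, 35, 53 and 36 without 8 h control 1, 2 and 3, and 2 without the 18 h control. The log2 values of the 77 kept their sign in these fits, except that of CCND2.

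**Figure D4:**
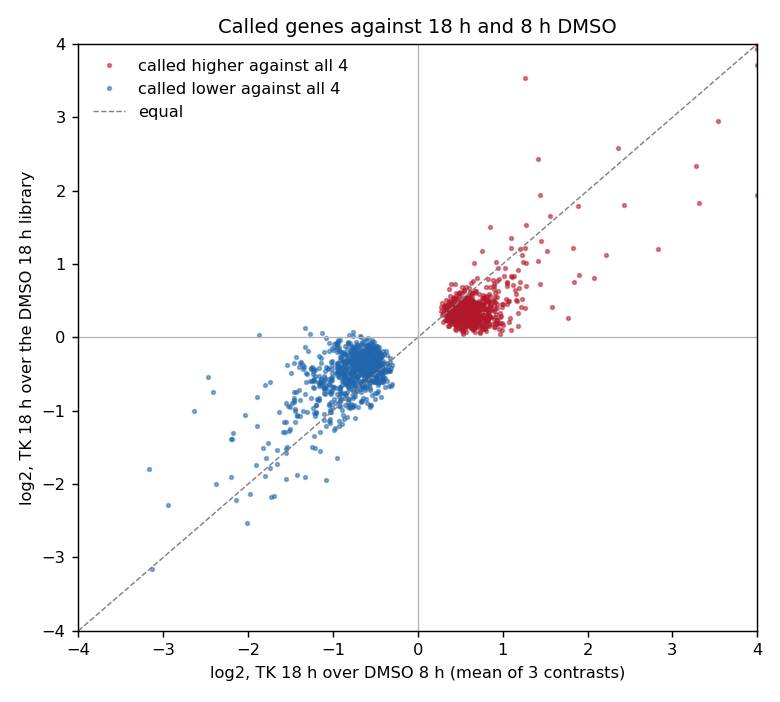
Log2 fold change of TK 18 h over the 18 h DMSO library (vertical) against the mean of the 3 log2 fold changes over the 8 h DMSO libraries (horizontal), for genes called higher (red) or lower (blue) against all 4 DMSO libraries; values beyond 4 are drawn at the edge. All 795 higher genes lie above 0 on the vertical axis and 795 of the 804 lower genes lie below it, and the medians are 0.35 and -0.45 there.

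The 7 libraries held between 30970706 and 49507627 counts in genes, and the markers of B cells were high in each of them. The 8 B cell markers summed to 4820.0 to 5107 CPM with TK and 3808 to 4576 CPM with DMSO. T cell markers summed to 0.828 to 1.48 CPM with TK and 0.770 to 1.74 CPM with DMSO, natural killer cell markers to 1.02 to 1.34 and 1.15 to 1.66 CPM, monocyte markers to 0.993 to 2.24 and 1.63 to 1.97 CPM, epithelial markers to 21.2 to 29.3 and 26.4 to 33.2 CPM, and fibroblast markers to 0.627 to 6.20 and 0.710 to 1.95 CPM, in each case TK and then DMSO. The share of reads outside annotated genes was lower with TK (5.87% to 6.36%) than with DMSO (8.18% to 10.1%), and the share that aligned to several places was higher (25.3% to 31.9% with TK, 20.7% to 25.1% with DMSO). Their part in the results was not tested. PPIAP22, a pseudogene of cyclophilin A, split the series into 2 sets that the labels do not name. It had 61.8 to 74.9 CPM in 6 libraries, among them TK 18 h replicate 3 and the 18 h DMSO library. In the other 14 it had 7.95 to 29.02 CPM. Every 18 h DMSO library of both lines is among the 6, and every 8 h DMSO library among the 14. Set and time therefore cannot be told apart in any comparison of 18 h with 8 h DMSO libraries. TK 18 h replicates 1 and 2 are not in the set of the 18 h DMSO library. Among the libraries with few PPIAP22 counts (TK replicates 1 and 2 against the 3 DMSO 8 h libraries, chosen after seeing the data), 964 genes were higher and 599 lower, with 14 of 30 mitotic and 14 of 27 ribosomal protein genes higher. In the other set 1 TK library stood against 1 DMSO library, with no test. There the median log2 difference was 0.39 for the mitotic list, 0.36 for the ribosomal proteins and -0.31 for DNA replication.

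The 18 h DMSO library differed from the 3 DMSO libraries of 8 h in 6 genes at the same threshold, 5 higher (0.0303%) and 1 lower (0.00607%; 1873 genes, or 11.4%, had an unadjusted p under 0.05), and none of the 6 was called in the pooled comparison. The lower one was IGKV3-20, a variable segment of the immunoglobulin kappa light chain, with 0 counts in the 18 h DMSO library and between 20439 and 29949 counts in each of the other 8 U2932 libraries. With 3 counts as the floor of the 18 h library, the TK libraries stood at least 11847-fold higher. The constant region gene IGKC had 1749 CPM in the 18 h library and 1221 to 1612 CPM in the 8 h libraries. Another immunoglobulin gene, IGHM, had 1060 CPM in 8 h DMSO replicate 3. It had 3429 and 3670 CPM in 8 h replicates 1 and 2, and 2572 CPM in the 18 h library. The labels do not say whether the 18 h DMSO library or 8 h replicate 3 came from the same culture or subclone as the others. This was not tested and bears on every value against these libraries. The 5 genes that were higher in the 18 h library were ABCA7, PIGR, PRKCB, MZB1 and UCP2. MZB1, a chaperone of antibody assembly, had 48.9, 77.0 and 61.3 CPM with TK, against 76.5 CPM in the 18 h and 31.7, 31.6 and 30.8 CPM in the 8 h DMSO libraries. These genes are named after their values were seen.

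Cholesterol synthesis and uptake also depended on the control: its median was 0.44 against the 18 h library, with 23 of 27 members positive, and -0.12, -0.14 and -0.22 against the 8 h libraries. Of the 27, 1 rose and 1 fell in the pooled comparison (5 and 1 with the replicate block). Each is 3.7% of the list, near the background of 4.82% higher and 4.88% lower. FDPS, which makes farnesyl diphosphate, averaged 308 ± 16.9 CPM with TK and 218 ± 6.58 CPM with DMSO (log2 0.49 ± 0.11, adjusted p = 0.0146; 0.46 against the 18 h library). STARD4, a sterol carrier, had 24.1, 21.2 and 19.8 CPM with TK, against 23.9 CPM in the 18 h and 49.8, 46.6 and 36.2 CPM in the 8 h DMSO libraries, and fell by 0.85 ± 0.25 on the log2 scale (adjusted p = 0.0356). The 18 h control of STARD4 lay within the range of the TK libraries, at a log2 value of -0.14.

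Of 30 p53 target genes 0 rose and 2 fell in U2932 (3 and 7 at an unadjusted p under 0.05, 0 and 4 by DESeq2, 6 and 9 by limma voom, 1 and 5 with the replicate block), with a median of -0.10 against all DMSO and 0.01 against the 18 h library. The 2 that fell are 6.67% of the list, near the background of 4.88% called lower. The other tests called more of all 16478 genes too. DESeq2 called 1201 lower, limma voom 3323 higher and 3485 lower, and the fit with the block 1773 and 1609. ZMAT3, an RNA-binding effector of p53, had 31.7, 28.3 and 28.7 CPM with TK, against 44.8 CPM in the 18 h and 68.8, 81.1 and 62.0 CPM in the 8 h DMSO libraries (log2 -1.12 ± 0.23, adjusted p = 0.00932). TP53INP1, a p53-induced stress protein, had 7.88, 7.30 and 8.02 CPM with TK, against 10.8 CPM in the 18 h and 18.2, 22.6 and 17.5 CPM in the 8 h DMSO libraries (log2 -1.16 ± 0.30, adjusted p = 0.0223). The 18 h control lay between the 8 h DMSO libraries and the TK libraries in both, and the values against it were -0.60 and -0.48. MDM2, the ubiquitin ligase of p53 and its target, had 66.1, 78.9 and 65.4 CPM with TK, against 71.8 CPM in the 18 h and 99.0, 94.7 and 96.1 CPM in the 8 h DMSO libraries, and did not pass the test (log2 -0.37 ± 0.13, adjusted p = 0.078; -0.03 against the 18 h library). At an adjusted p under 0.05 it was called lower by DESeq2 (log2 -0.36), by limma voom (log2 -0.46) and by edgeR without the 18 h control (log2 -0.46).

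The change of these genes was tested against that in DOHH2 with TK for 18 h. The pooled DMSO controls held 3 libraries of 8 h and 1 of 18 h in U2932, and 3 and 2 in DOHH2. Effects of time may therefore enter the difference between the lines, which was not tested. In DOHH2 itself 33 genes were higher (0.2%) and 11 lower (0.0668%). The difference between the lines passed for 734 genes (4.45%), 456 with a larger value in U2932 (2.77%) and 278 with a smaller one (1.69%). In DOHH2 TK 18 h replicate 1, 56.6% of reads aligned to several places, the highest share of the 20 libraries. Without that library the lines differed in 922 genes. Among the genes called higher in U2932, 292 differed in that direction, and among those called lower, 179. MDM2 averaged 438 ± 50.7 CPM with TK and 190.0 ± 9.92 CPM with DMSO in DOHH2 (SD, n = 3 and 5; log2 1.21 ± 0.12, adjusted p = 1.13e-05 by edgeR), and the lines differed by -1.57 ± 0.18 (U2932 minus DOHH2, adjusted p = 0.000119). SESN1, a sestrin that p53 induces, averaged 8.10 ± 1.36 CPM with TK and 8.86 ± 0.795 CPM with DMSO in U2932, and averaged 27.8 ± 0.963 CPM with TK and 13.1 ± 1.05 CPM with DMSO in DOHH2 (difference -1.21 ± 0.17, adjusted p = 0.00187). PNRC1, a nuclear receptor coactivator, fell in U2932 (log2 -0.50 ± 0.12, adjusted p = 0.02) and rose in DOHH2 (log2 0.79 ± 0.12, adjusted p = 0.00153), with a difference of -1.29 ± 0.17 (adjusted p = 0.000875). The same difference was -1.83 for ZMAT3 (adjusted p = 0.00767), -2.28 for TP53INP1 (adjusted p = 0.00911), -2.20 for MIR34AHG (adjusted p = 0.00187) and -1.40 for FBXL20 (adjusted p = 0.00314). In the p53 list 8 of 30 genes differed with the smaller value in U2932 and 0 with the larger one, and the list's median was -0.10 in U2932 and 0.52 in DOHH2.

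For mitotic genes the difference ran the other way. CDC20 averaged 186 ± 29.5 CPM with TK and 179 ± 26.5 CPM with DMSO in DOHH2, and its change was larger in U2932 by log2 1.36 ± 0.26 (adjusted p = 0.0116). CCNB1 averaged 149.6 ± 13.2 CPM with TK and 148 ± 17.9 CPM with DMSO in DOHH2, a difference of 1.18 ± 0.19 (adjusted p = 0.00642). Of the mitotic list 9 of 30 genes had a larger change in U2932 and 0 a smaller one, with a median of 0.50 in U2932 and -0.11 in DOHH2. Ribosomal proteins had 13 of 27 with a larger change in U2932 (median 0.47 in U2932, -0.15 in DOHH2), and the nuclear respiratory chain 9 of 18 (median 0.47 in U2932, -0.21 in DOHH2). The cytosolic chaperones had 2 of 15, the kinesins and centromere genes 1 of 25, and the tubulins 3 of 12, TUBB4B with a difference of 1.14 (adjusted p = 0.0178). CCNE2, which fell in U2932, differed by -1.09 (adjusted p = 0.0452). Without U2932 TK replicates 1, 2 and 3 in turn the lines differed in 70, 70 and 272 genes, without U2932 8 h controls 1, 2 and 3 in 147, 145 and 214, and without the U2932 18 h control in 1832. Without DOHH2 TK replicate 2, DOHH2 8 h DMSO replicate 1 or DOHH2 8 h DMSO replicate 3 the counts were 318, 417 and 238.

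**Figure D5:**
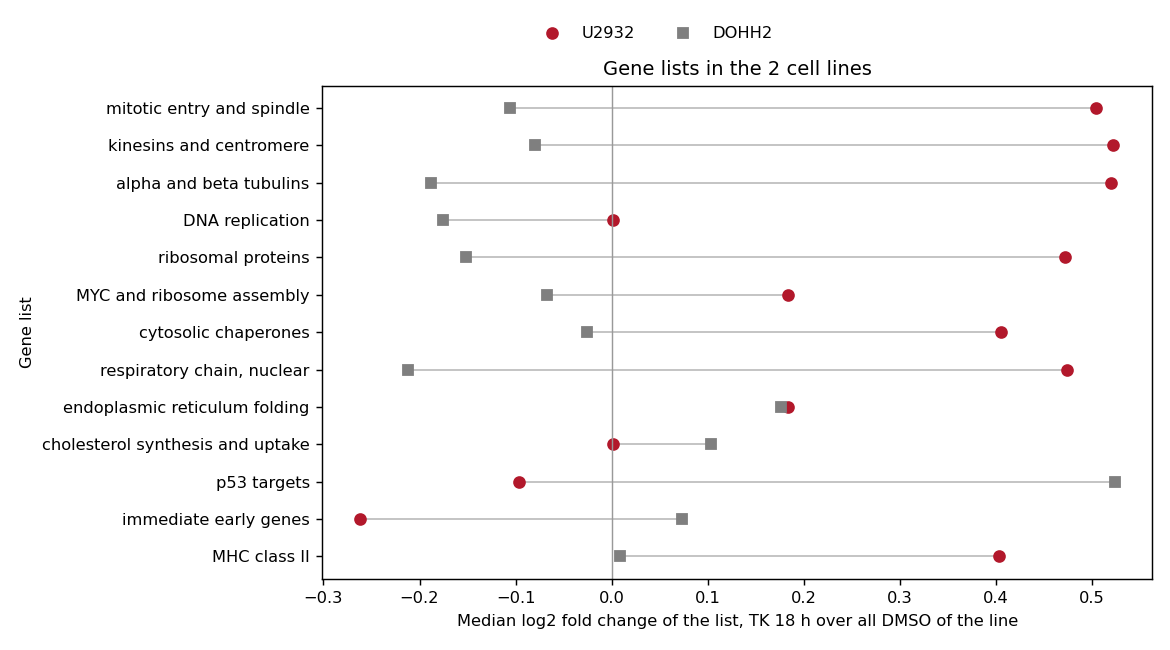
Median log2 fold change of 13 gene lists with TK for 18 h over all DMSO libraries of the same line: red circles, U2932; grey squares, DOHH2; grey lines join the values of the 2 lines. The mitotic list stands at 0.50 in U2932 and -0.11 in DOHH2, and the p53 targets at -0.10 in U2932 and 0.52 in DOHH2.

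Genes of survival and of the B cell programme moved singly. In the BCL2 family 2 of 18 rose and 2 fell (5 and 4 with the replicate block). Each is 11.1% of the list, against 4.82% higher and 4.88% lower over all genes tested. BCL2L11, which encodes the pro-apoptotic protein BIM, had 74.7, 80.0 and 77.8 CPM with TK, against 109 CPM in the 18 h and 133, 146 and 149.8 CPM in the 8 h DMSO libraries (log2 -0.79 ± 0.20, adjusted p = 0.0193; -0.49 against the 18 h library). MCL1, a pro-survival member, averaged 1704 ± 56.2 CPM with TK and 2430.1 ± 356 CPM with DMSO (log2 -0.51 ± 0.13, adjusted p = 0.0215; -0.20 against the 18 h library), and the difference of its change from that in DOHH2 was -0.70 (adjusted p = 0.0326). BCL2L12 rose by log2 0.87 ± 0.22 (adjusted p = 0.02; 0.45 against the 18 h library) and BCL2L13, a mitochondrial member, by 0.33 ± 0.09 (adjusted p = 0.031; 0.41 against the 18 h library).

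Of 20 genes of B cell receptor signalling 3 rose and 0 fell (5 rose with the replicate block). BTK, the kinase downstream of the receptor, averaged 129 ± 6.87 CPM with TK and 91.1 ± 19.4 CPM with DMSO (log2 0.50 ± 0.13, adjusted p = 0.0218), and VAV1, an exchange factor for Rac, averaged 88.7 ± 1.17 CPM with TK and 59.1 ± 16.3 CPM with DMSO (log2 0.58 ± 0.18, adjusted p = 0.0415). In both the 18 h control was the highest DMSO library, and the values against it were 0.11 and 0.09. Of 20 B cell identity genes 1 rose and 1 fell (1 and 2 with the block). Of 17 germinal centre B cell genes 0 rose and 1 fell by edgeR (1 rose at an unadjusted p under 0.05, 2 by DESeq2, 4 by limma voom and 3 with the block, where 3 fell). Of 15 activated B cell genes 1 rose and 1 fell. The counts of the main fit stand near the background of 4.82% higher and 4.88% lower. Over all 16478 genes limma voom called 3323 higher, and the fit with the block 1773 higher and 1609 lower. POU2AF1, of the first list, the B cell coactivator OBF1, had 348, 414 and 378 CPM with TK, against 536 CPM in the 18 h and 527, 573 and 621 CPM in the 8 h DMSO libraries (log2 -0.57 ± 0.14, adjusted p = 0.0206; -0.50 against the 18 h library). S1PR2, of the second, which keeps germinal centre B cells in place, fell by 0.50 ± 0.16 on the log2 scale (adjusted p = 0.0476; -0.44 against the 18 h library), and PIM1, a survival kinase of the third, by 0.59 ± 0.14 (adjusted p = 0.0149; -0.33 against the 18 h library). CCND2, for cyclin D2 and in the same list, was called higher (log2 2.77 ± 0.81, adjusted p = 0.0406) through TK replicate 3: it had 0.232, 0.114 and 3.15 CPM with TK, against 0.249 CPM in the 18 h and 0.143, 0.266 and 0.0546 CPM in the 8 h DMSO libraries. Without TK replicate 3 its value was -0.10, and with the replicate block it was 1.86 (adjusted p = 0.241).

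Of 19 genes of folding in the endoplasmic reticulum 3 rose and 1 fell (5 and 2 with the replicate block). The shares were 15.8% higher and 5.26% lower, against 4.82% and 4.88% of all genes tested. HSPA5, the main chaperone there, had 928, 1223 and 1078 CPM with TK, against 937 CPM in the 18 h and 512, 581 and 629 CPM in the 8 h DMSO libraries (log2 0.70 ± 0.17, adjusted p = 0.0181). The 18 h control of HSPA5 lay within the range of the TK libraries, at a log2 value of 0.20. HSP90B1, the HSP90 of this compartment, rose by log2 0.75 ± 0.18 (adjusted p = 0.0167; 0.32 against the 18 h library) and MANF, a secreted stress protein, by 0.67 ± 0.18 (adjusted p = 0.0258; 0.05 against the 18 h library). DNAJB9, a cochaperone, fell by 0.82 ± 0.22 (adjusted p = 0.0241; -0.36 against the 18 h library).

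Of 24 splicing factors 1 rose (4.17%) and 2 fell (8.33%), against a background of 4.82% higher and 4.88% lower. With the replicate block these counts were 5 and 2. EWSR1, an RNA-binding protein of the FET family, averaged 667 ± 48.1 CPM with TK and 507 ± 63.2 CPM with DMSO (log2 0.40 ± 0.12, adjusted p = 0.0369; 0.21 against the 18 h library). SRSF10, an SR protein, fell by 0.55 ± 0.15 (adjusted p = 0.0305; -0.36 against the 18 h library) and SRSF1, another, by 0.42 ± 0.13 (adjusted p = 0.0416; -0.07 against the 18 h library). Of 16 ETS factors 1 rose and 1 fell, 6.25% each and near that background (1 and 4 with the block). ETV5 had 3.14, 2.37 and 7.11 CPM with TK, against 1.82 CPM in the 18 h and 2.27, 1.81 and 1.91 CPM in the 8 h DMSO libraries (log2 1.12 ± 0.34, adjusted p = 0.0427), with TK replicate 3 the highest. The call was lost in each of the 7 fits that left out 1 library, and without TK replicate 3 the value was 0.51 (adjusted p = 0.416 by edgeR). ELK4 averaged 36.4 ± 3.99 CPM with TK and 59.7 ± 15.4 CPM with DMSO (log2 -0.71 ± 0.22, adjusted p = 0.0476; -0.11 against the 18 h library). Of 25 immediate early genes 0 rose and 2 (8%) fell (0 and 8 with the block), with a median of -0.26.

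In the 2 U2932 libraries with TK for 8 h, replicates 1 and 2, CDC20 stood at 349 and 208 CPM. CCNB1 stood at 291 and 201 CPM there, and CCNE2 at 17.6 and 28.9 CPM. The 2 libraries fell in different sets by PPIAP22, at 62.7 and 7.95 CPM, and all 8 h DMSO libraries are in the set of replicate 2. In replicate 2 CDC20 and CCNE2 lay within the range of the U2932 8 h DMSO libraries, and CCNB1 above it. The change with TK for 8 h was not tested.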

How the data were processed

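Polyadenylated RNA of 20 libraries was measured. The deposited files hold raw counts of reads per gene. Per the submitters' processing notes STAR, HTSeq and edgeR were used with GRCh38.p10; no version, annotation release or strand setting was found in the labels, and reads of overlapping or antisense genes cannot be told apart without the last. The 5 summary rows of each file (32.7% to 40.4% of reads in the 7 libraries) were left out.

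Genes were kept when at least 3 libraries reached the CPM that 10 counts make in the median library (16478 genes). edgeR 4.0.16 in R 4.3.3 (TMM scaling, robust quasi-likelihood fit) was run on all 20 libraries in 6 groups, with the DMSO libraries of both times pooled per line. Another fit gave each U2932 DMSO library its own coefficient, and a fit of 8 groups compared the control times. P-values were two-sided and adjusted by Benjamini-Hochberg over all genes kept, with a threshold of 0.05. DESeq2 1.42.0 and limma 3.58.1 (voom) were alternatives, beside other scalings, filters and sets of libraries. The code was tested on simulated data. Coordinates and lengths are from GENCODE v29 (16433 genes matched), the length being that of the longest transcript, and promoters from RefSeq.

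The labels number the replicates. Deviations of same-numbered TK 18 h and DMSO 8 h libraries correlated at 0.548, 0.164 and 0.242 over 10161 genes. The numbers may therefore pair the libraries, but these values do not settle it. The main fit has no block, and the replicate block is an alternative to it. In the block each replicate number has 1 effect, shared by both cell lines. TK replicate 2 correlated more with DMSO 8 h replicate 3 (0.381).

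Members and gene lists were chosen with earlier results of these data known. Named genes are up to 15 rises and 15 falls with a mean of at least 5 CPM and no overlap between the groups, up to 4 called members of a list (the one with the smallest p where none was called), genes past the threshold against each control singly (none), and 5 genes for the difference between lines. Of the 108 genes this gives, 76 are described.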

Additional observations from a re-analysis of the deposited data

Results flagged for a closer look

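In 4 of the 81 named genes, 1 of the 4 U2932 DMSO libraries stood far from the other three, and each time it was the library taken at 18 h. Its gap to the nearest other library was 0.831 of the whole range for MANF, 0.855 for ODC1, 0.879 for VAV1 and 0.842 for MDM2, each above Dixon's critical value for 4 samples. The 18 h library was the highest for MANF (96.5 CPM at 18 h and 47.5 to 55.8 CPM at 8 h), ODC1 and VAV1, and the lowest for MDM2 (71.8 CPM at 18 h and 94.7 to 99.0 CPM at 8 h). Chance flags about 1 in 20 such groups, and 4 of 81 is near that share, so the count is no result.

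For 42 of the 81 named genes the log2 change with TK for 18 h in U2932 differed from that in DOHH2 by the edgeR test of the difference, adjusted over all genes, as for 734 (4.45%) of all 16478 genes. MDM2, SESN1, PNRC1 and FBXL20 were named for this difference and most of the others for their change in U2932, so the count over the named genes is no result. The differences, U2932 minus DOHH2, follow as log2 values in parentheses. Among mitotic and microtubule genes they were CDC20 (1.36), CCNB1 (1.18), CCNB2 (1.26), PTTG1 (1.16), UBE2S (1.28), AURKA (0.87), PLK1 (1.09), CKS2 (1.09), BIRC5 (1.09), CDKN3 (1.08), TROAP (0.97), CENPW (1.46), CENPA (1.02) and TUBB4B (1.14). In genes of ribosomes, protein folding, metabolism and the respiratory chain they were RPL39L (1.25), RPL3 (0.67), RPL5 (0.56), RPS2 (0.86), ODC1 (0.58), CCT5 (0.55), UBB (1.43), FDPS (0.57), SDHB (0.84), UQCRC2 (0.63), NDUFB3 (0.83) and NDUFB9 (0.82). In genes of the p53 pathway and PNRC1 they were MDM2 (-1.57), SESN1 (-1.21), ZMAT3 (-1.83), TP53INP1 (-2.28), MIR34AHG (-2.20) and PNRC1 (-1.29). In the other genes they were UHMK1 (-1.51), USP37 (-1.44), TSPOAP1 (-1.65), FAM126B (-1.46), FBXL20 (-1.40), CCNE2 (-1.09), STARD4 (-1.16), DNAJB9 (-1.02), MCL1 (-0.70) and POU2AF1 (-0.68). The highest adjusted p among these 42 was 0.0497.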

How the results depend on the processing

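The 795 higher and 804 lower genes became 1429 and 1217 with the 7 libraries only, 1285 and 1276 with the 9 U2932 libraries only, 1522 and 1454 with the 8 h DMSO libraries only, 1 and 0 with the 18 h DMSO library only, 1773 and 1609 with the replicate block, 0 and 0 in a test against a 1.5-fold change, and 3323 and 3485 with limma voom and library quality weights. DESeq2 called 1199 higher. Leaving out 1 library gave 36 to 1443 higher and 44 to 1358 lower genes. Against the 18 h DMSO library 86 genes passed with no filter and 4 with the 9 U2932 libraries, and 1 to 4 without 1 TK library. Against 8 h replicate 1 these were 1175, 2884, and 1 to 57, against replicate 2 747, 1538, and 1 to 15, and against replicate 3 344, 626, and 0 to 0. Between the control times 332 genes passed with no filter and 1 to 2 without 1 library of 8 h, and between the lines 1366 with no filter and 70 to 1832 without 1 library. The cause was not tested.

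Of 1701 alternatives for named genes, 455 lost the call, 5 gained it and 5 turned the sign: SESN1 to 0.062 against the 18 h library only, CDK1 to 0.040 with limma voom and to 0.011 without 8 h control 1 (-0.21 to 0.011 over the omissions of 1 library), MDM2 to 0.0064 with the length and GC correction, and CCND2 to -0.099 without TK replicate 3 (-0.099 to 3.29 over the omissions). The block ended the call of 1 named gene, CCND2. The comparison of equal times is limited by its single 18 h control. Depth limits the precision of genes near the filter of 10 counts.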
